A study of Homo sapiens and Mus musculus with 36 samples.

Results

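CXCL9, CXCL10 and CXCL11 are 3 chemokines that bind the receptor CXCR3, and their transcripts were followed in tumour cell lines with and without the histone methyltransferase DOT1L. The members were taken by gene symbol: 3 of the 26457 symbols in the human libraries made with guides, 1 (CXCL10) of the 15899 symbols listed for the human inhibitor libraries, and Cxcl9, Cxcl10 and Cxcl11 among the 22673 symbols of the mouse libraries. CXCR3 ligands are secreted proteins that draw activated T cells and natural killer cells into tissue. Interferon gamma induces all 3 through JAK kinases and transcription factors such as IRF1, and CXCL10 also responds to NF-κB and to type I interferon. DOT1L places methyl groups on histone H3 along transcribed genes, and the study made DOT1L knockout lines to learn what it does for gene expression.

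RNA was sequenced from 36 libraries in 17 groups. The human line HuH-7 comes from a hepatocellular carcinoma. It carried the DOT1L guide sg1 or sg2, or the control guide sgNeg2, whose genotype is labelled WT, and each of these 3 was grown with interferon (IFN) and without it, with 2 libraries per group. HuH-7 cells were also given EPZ-5676, a small-molecule inhibitor of DOT1L, for 7 days, or DMSO, the solvent, for a time the labels do not state, with 3 libraries each. The mouse liver tumour lines Hepa1-6 and Hep53.4 and the mouse Lewis lung carcinoma line LLC carried sg1, sg2 or sgNeg2, again with 2 libraries per group. In each line the sg1 and sg2 libraries together formed the knockout group, 4 libraries against 2. The labels do not give the type, dose or duration of the IFN treatment. They do not say whether a knockout line was 1 clone or a pool, or whether libraries of a group came from separate cultures, so a p-value here reflects the spread among these libraries alone, which may be technical.

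DOT1L mRNA was at 32.1 to 40.35 CPM (counts scaled to a common library size) in HuH-7 knockout cells against 73.1 and 75.4 CPM in sgNeg2 cells without IFN. With IFN it was at 42.5 and 46.5 CPM with sg1 and at 66.7 and 66.8 CPM with sg2, against 108.5 and 109.1 CPM with sgNeg2. In knockout and sgNeg2 cells, Dot1l was at 14.3 to 16.7 CPM against 41.5 and 45.7 CPM in Hepa1-6, at 10.8 to 15.3 CPM against 21.6 and 22.3 CPM in Hep53.4, and at 30.05 to 33.7 CPM against 62.0 and 68.8 CPM in LLC. EPZ-5676 does not cut the gene, and DOT1L mRNA was at 47.6 to 51.1 CPM with it and at 51.8 to 54.5 CPM with DMSO. Total counts ran from 19580588 to 61227426 per HuH-7 guide library, from 48912627 to 58628528 per inhibitor library and from 42637155 to 59686358 per mouse library. HuH-7 libraries held all 8 hepatocyte markers at 1 CPM or more, and of 6 T cell markers PTPRC, CD2 and the receptor CXCR3 were at 0 in all 12 guide libraries, while CD8A averaged 3.50 to 5.21 CPM over the 4 conditions. Of the 8 hepatocyte markers, Hepa1-6 held 5 and Hep53.4 held 3 at 1 CPM or more. LLC held 0 of 5 lung epithelium markers at that level, so its lung label is not shown by these markers.

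The ligand genes lie side by side on the minus strand of human chromosome 4 within 40141 bases (hg38, GENCODE annotation). CXCL9 is at chr4:76001275-76007488, CXCL10 at chr4:76021117-76023497 and CXCL11 at chr4:76033682-76041415, each with 4 exons. CXCL10 and CXCL11 lie inside ART3, which runs on the opposite strand, and CXCL9 overlaps the antisense gene AC112719.2. CXCL11 also overlaps the processed pseudogene AC112719.1 on its own strand. In each case 0 exonic bases are shared. Whether strand was used in counting is not given, so reads from introns or unannotated ends of these partners cannot be told apart from one another. For AC112719.1 and CXCL11, strand would not separate such reads.

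The stretches just upstream of the starts are shown because motifs of factors that answer the classical inducers of these genes were sought there. They come from RefSeq (GRCh38.p14, minus strand, 250 bases up to the start site), with matches to searched motifs in capitals. CXCL9 spans chr4:76007510-76007759 and holds 1 interferon-stimulated response element core (GAAANNGAAA) at -171 to -162. CXCL10 spans chr4:76023498-76023747 and holds 1 such core at -221 to -212 and the NF-κB consensus at -177 to -168 and at -122 to -113.
CXCL9: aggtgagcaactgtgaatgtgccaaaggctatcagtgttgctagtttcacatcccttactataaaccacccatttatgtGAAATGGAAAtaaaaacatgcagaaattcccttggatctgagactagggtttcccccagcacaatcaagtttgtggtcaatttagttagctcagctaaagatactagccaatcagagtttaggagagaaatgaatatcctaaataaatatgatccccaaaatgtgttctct
CXCL10: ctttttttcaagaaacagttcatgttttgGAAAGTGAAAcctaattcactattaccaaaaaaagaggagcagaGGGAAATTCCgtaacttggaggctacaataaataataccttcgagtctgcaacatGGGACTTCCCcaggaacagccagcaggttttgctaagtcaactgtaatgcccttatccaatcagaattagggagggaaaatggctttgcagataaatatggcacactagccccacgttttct

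For CXCL11, whose start differs between RefSeq and GENCODE, only the 30-base windows around its matches are shown. The gamma-activated site (TTCNNNGAA) at -240 to -232 lies in chr4:76036291-76036320 and the NF-κB consensus at -76 to -67 in chr4:76036127-76036156.
CXCL11 window with the gamma-activated site: ttaaatggatTTCTAGGAAaagctacctta
CXCL11 window with the NF-κB consensus: gactcaaagaGGGAAATTCCtgtgccataa

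All motifs were sought on both strands, every match reads on the strand of the gene, and no match overlaps another motif. The consensus TTCNNNGAA of the gamma-activated site reads the same on both strands, so its match counts on either strand and has no direction. The letters shown for it are those of the gene strand. Of 35116 human promoter windows of the same length, 6.57% held the gamma-activated site, 3.02% the response element core and 5.21% the NF-κB consensus. A match describes letters only. Factor binding was not measured.

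Without IFN, CXCL10 and CXCL11 were higher in HuH-7 knockout cells than in sgNeg2 cells, and both ended far below the levels seen with IFN. CXCL10 was at 7.05 and 6.92 CPM with sg1 and at 8.56 and 7.95 CPM with sg2, against 3.92 and 3.70 CPM with sgNeg2. Every knockout library lay above both sgNeg2 libraries. The fitted difference was 1.00 ± 0.11 on the log2 scale (SE), a 2.00-fold rise, with adjusted p = 8.16e-05. CXCL11 counts were 18 and 15 with sg1 and 16 and 18 with sg2, against 6 and 4 with sgNeg2. As CPM these were 0.7381, 0.6252, 0.7288 and 0.8373 in knockout cells and 0.258 and 0.170 in sgNeg2 cells, again with no overlap. The log2 difference of CXCL11 was 1.75 ± 0.43 (adjusted p = 0.0177), 3.37-fold. Its sgNeg2 counts without IFN lie below the filter's minimum count of 10, so CXCL11 entered the test through the other libraries of the fit. The CXCL11 call rested on both sgNeg2 libraries: adjusted p was 0.0887 (log2 2.08) without the first and 0.203 (log2 1.44) without the second.

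CXCL9 was barely transcribed without IFN. Counts were 8 and 4 with sg1 and 7 and 7 with sg2, against 0 and 5 with sgNeg2. The knockout value of 4 counts lies below the sgNeg2 value of 5 counts, so the groups overlap. The log2 difference was 1.38 ± 0.66, with a 95% interval of -0.06 to 2.81 and adjusted p = 0.213. Without the second sgNeg2 library CXCL9 is set against 0 counts only and was called (adjusted p = 0.0396), and without the first the log2 difference was 0.41. At this depth a CXCL9 difference was not resolved. Like CXCL11, it entered the test through libraries other than these sgNeg2 ones. In bulk RNA, more cells making a ligand and more RNA per cell cannot be told apart, here and in all comparisons below.

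Of the 3 ligands, 2 passed the threshold (adjusted p below 0.05 over all tested genes), both higher, where 6.95% of the 16448 tested genes were called higher, 4.38% lower and 11.3% in either direction. Other values moved with genotype. The summed hepatocyte markers were at 12489 to 14520 CPM in knockout cells and at 15694 to 15739 CPM in sgNeg2 cells, and the lung epithelium ones, mostly EPCAM, at 191.6 to 218.6 CPM in knockout cells and 118.8 to 122 CPM in sgNeg2 cells. The summed T cell markers, mostly CD8A, were at 4.75 to 6.46 CPM in knockout cells and at 4.005 to 4.428 CPM in sgNeg2 cells. The summed fibroblast markers were at 10.65 to 15.3 CPM in knockout cells and at 3.06 to 6.26 CPM in sgNeg2 cells, mostly COL1A1, and the summed endothelial markers at 15.55 to 18.05 CPM in knockout cells and at 8.48 to 9.37 CPM in sgNeg2 cells, mostly PECAM1 (1 of 4 listed genes at 1 CPM or more, KDR at 0). The summed macrophage and dendritic cell markers, 2 of 6 at 1 CPM or more, overlapped at 49.8 to 61.1 CPM in knockout cells and 54.0 to 57.2 CPM in sgNeg2 cells. Their part in the ligand values was not tested.

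**Figure D1:**
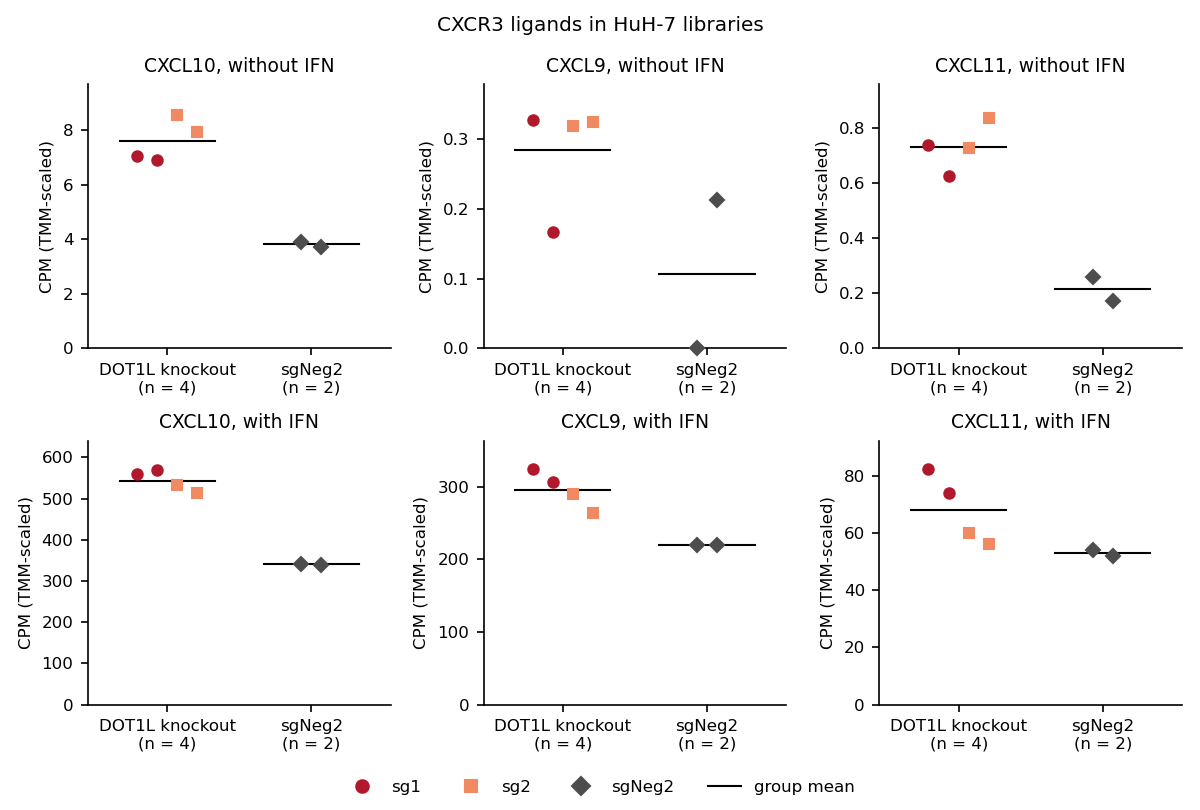
CPM of CXCL10, CXCL9 and CXCL11 in each HuH-7 guide library, without IFN in the upper row and with IFN in the lower row, on linear axes that start at 0. Knockout libraries stand left of sgNeg2 libraries and lines mark group means. All 4 knockout libraries lie above both sgNeg2 libraries in every panel except CXCL9 without IFN.

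With IFN, CXCL10 and CXCL9 were higher in knockout cells than in sgNeg2 cells, and CXCL11 did not pass the test. CXCL10 was at 559 and 571 CPM with sg1 and at 532 and 514 CPM with sg2, against 342 and 339 CPM with sgNeg2. The knockout mean was 544 ± 25.7 CPM (SD, n = 4) and the sgNeg2 mean 340.4 ± 2.63 CPM (SD, n = 2), with no overlap. The log2 difference was 0.68 ± 0.08 (adjusted p = 7.17e-05), 1.598-fold. It stayed between 0.65 and 0.71, with adjusted p below the threshold, when each library was left out in turn.

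CXCL9 was at 325 and 306 CPM with sg1 and at 290.3 and 263.8 CPM with sg2, against 220.2 and 219.9 CPM with sgNeg2. Every knockout library exceeded both sgNeg2 libraries, and sg1 libraries exceeded sg2 libraries. The log2 difference was 0.43 ± 0.12 (adjusted p = 0.0321), 1.35-fold. This call was lost without the first sgNeg2 library (adjusted p = 0.199), without the second sgNeg2 library (0.207) and without the second sg1 library (0.0558), all with IFN, although the log2 difference stayed between 0.39 and 0.49.

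CXCL11 was at 82.4 and 74.1 CPM with sg1 and at 60.1 and 56.1 CPM with sg2, against 53.95 and 52.15 CPM with sgNeg2. The groups did not overlap, but the sg2 libraries lay close to sgNeg2. The pooled log2 difference was 0.36 ± 0.13, with a 95% interval of 0.07 to 0.65, and did not pass (adjusted p = 0.103). Without the second sg2 library it passed (log2 0.45, adjusted p = 0.0242), and with each guide as its own group it passed as well (0.35, adjusted p = 0.00201). The summed fibroblast markers were at 9.87 to 13.4 CPM in knockout cells and at 1.54 to 1.88 CPM in sgNeg2 cells with IFN, the endothelial ones at 6.66 to 9.66 CPM in knockout cells and at 3.10 to 4.38 CPM in sgNeg2 cells, the T cell ones at 4.27 to 5.79 CPM in knockout cells and at 3.26 to 3.84 CPM in sgNeg2 cells, and the hepatocyte ones at 7735 to 8488 CPM in knockout cells and at 8795 to 8886 CPM in sgNeg2 cells. Macrophage and lung epithelium sums overlapped between the groups. Their part in the ligand values was not tested. Thus 2 of 3 ligands were called higher, where 7.11% of tested genes were called higher, 5.27% lower and 12.4% in either direction.

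Guides were then compared with each other, since sg1 and sg2 lines differ in how much DOT1L mRNA they kept with IFN. CXCL11 with IFN was lower with sg2 than with sg1, at a mean of 58.1 CPM with sg2 and 78.25 CPM with sg1 (log2 -0.43 ± 0.08, adjusted p = 0.00119). In this comparison 34.4% of tested genes were called, so a difference of this kind was common. CXCL9 differed by -0.19 ± 0.08 (adjusted p = 0.0757) and CXCL10 by -0.11 ± 0.04 (adjusted p = 0.063). Each guide alone against sgNeg2 gave CXCL10 a log2 difference of 0.73 with sg1 and 0.62 with sg2, CXCL9 one of 0.52 with sg1 and 0.33 with sg2, and CXCL11 one of 0.56 with sg1 (adjusted p = 0.000155) and 0.13 with sg2 (adjusted p = 0.227). Those fits called 26.5% of tested genes for sg1 and 30.8% for sg2.

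Without IFN no ligand was called between the guides. The sg2 minus sg1 differences were 0.24 ± 0.10 for CXCL10 (adjusted p = 0.387), 0.20 for CXCL11 (adjusted p = 0.878) and 0.37 for CXCL9 (adjusted p = 0.863), and 0.0304% of tested genes were called. That share was 21.9% without the first sg2 library and at most 0.504% without any 1 of the other 3. The 95% intervals of these differences were 0.03 to 0.45 for CXCL10, -0.54 to 0.93 for CXCL11 and -0.91 to 1.66 for CXCL9.

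Differences with IFN were larger than those with knockout for each ligand. In knockout cells CXCL9 averaged 296.5 ± 26.1 CPM with IFN and 0.285 ± 0.0788 CPM without it (SD, n = 4 each), a log2 difference of 10.01 ± 0.18 (adjusted p = 4.96e-14). CXCL11 averaged 68.2 ± 12.2 CPM with IFN and 0.732 ± 0.0867 CPM without it, 6.54 ± 0.17 on the log2 scale (adjusted p = 1.25e-12). For CXCL10 the log2 difference was 6.16 ± 0.08 (adjusted p = 2.79e-15). All 3 passed, where 78.6% of tested genes were called, 36.4% higher and 42.2% lower.

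In sgNeg2 cells the IFN differences were 10.96 ± 0.29 for CXCL9 (adjusted p = 4.99e-12), 7.93 ± 0.28 for CXCL11 (adjusted p = 7.85e-11) and 6.48 ± 0.12 for CXCL10 (adjusted p = 2.55e-13, 89.3-fold). All 3 passed, where 67.8% of tested genes were called, 33.0% higher and 34.7% lower. The CXCL9 value is loose at the low end, because 1 of the 2 untreated libraries held 0 counts. Leaving out 1 library at a time gave 10.00 to 15.96, and the upper end is a fit against 0 counts that sets no bound.

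The IFN libraries stood apart from the untreated ones in more than treatment. They held 47594968 to 61227426 counts each, against 19580588 to 22649969 without IFN, and RNAs that carry no poly(A) tail took 0.0446% to 0.0574% of counts with IFN against 4.06% to 6.87% without it. A difference in library preparation between the 2 sets cannot be told apart from the IFN effect. Against the DMSO libraries, in which that share was 0.0505% to 0.0529%, CXCL10 in IFN-treated sgNeg2 cells was 6.44 higher on the log2 scale (adjusted p = 1.02e-07).

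The size of the IFN difference was set against genotype by an interaction test, the knockout difference with IFN minus that without. It was -0.32 ± 0.14 for CXCL10 (adjusted p = 0.328), -0.95 ± 0.69 for CXCL9 (adjusted p = 0.602) and -1.39 ± 0.46 for CXCL11 (adjusted p = 0.208). None of the 3 was called, where 0.505% of tested genes were. By unadjusted p below 0.05, 2 of the 3 passed (CXCL10 at 0.0333 and CXCL11 at 0.00944), as did 2114 of all tested genes. CXCL11 was called with each guide as its own group (-1.41, adjusted p = 0.023) and with sg2 alone (-1.72, adjusted p = 0.0046), as was CXCL10 with sg2 alone (-0.50, adjusted p = 0.00391). The CXCL9 estimate turned to 0.03 without the first untreated sgNeg2 library, the one with 0 counts.

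**Figure D2:**
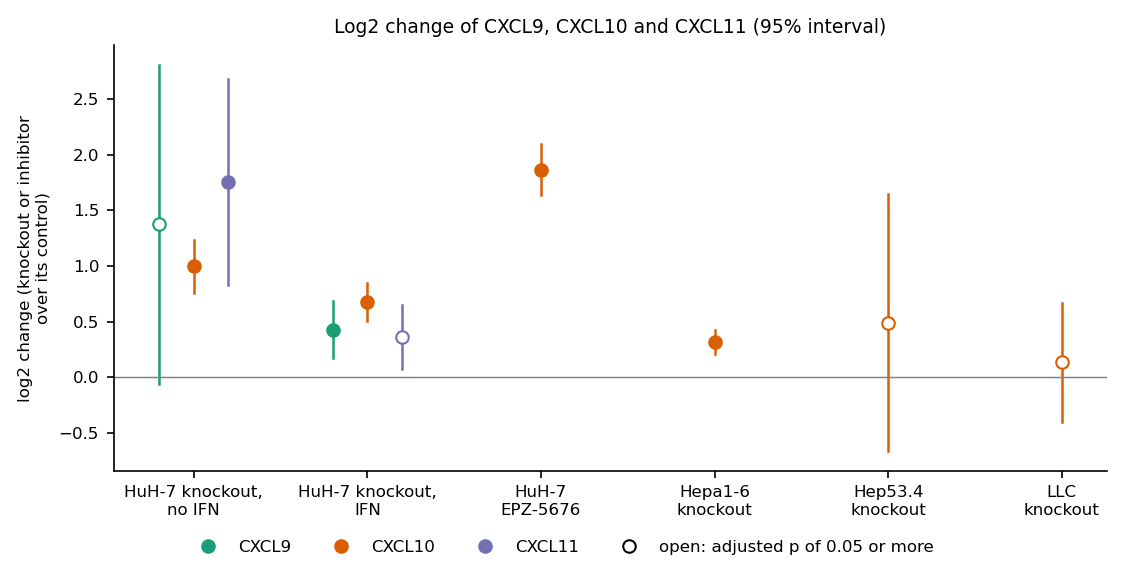
Log2 differences with 95% intervals for each ligand in 6 comparisons: HuH-7 knockout against sgNeg2 without and with IFN, EPZ-5676 against DMSO, and knockout against sgNeg2 in Hepa1-6, Hep53.4 and LLC, where the points are Cxcl10. Open points did not pass the threshold. The largest CXCL10 difference is 1.87 with EPZ-5676, and the intervals of Hep53.4 and LLC span 0.

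Per kilobase of transcript, which lets genes be ranked, CXCL10 was the most abundant ligand in every HuH-7 guide group. With IFN it reached 463 CPM per kb in knockout cells and 289.5 in sgNeg2 cells. CXCL9 followed at 108 CPM per kb in knockout cells and 80.3 in sgNeg2 cells, and CXCL11 at 42.45 in knockout cells and 33.0 in sgNeg2 cells. No library values of neighbours in this order overlapped. Without IFN the order below CXCL10 was the other way round. In knockout cells CXCL10 stood at 6.48, CXCL11 at 0.456 and CXCL9 at 0.104 CPM per kb. In sgNeg2 cells they stood at 3.24, 0.133 and 0.0388, where the order of CXCL11 and CXCL9 rests on 10 and 5 counts over both libraries.

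The mix of the 3 ligands differed slightly by genotype with IFN. Of all counts of the 3 genes, CXCL10 took 57.81% and 60% with sg1 and 60.3% and 61.6% with sg2, against 55.5% and 55.45% with sgNeg2. Every knockout library lay above both sgNeg2 libraries, and no 95% Wilson interval was wider than 1.21 percentage points. CXCL9 took 31.6% to 33.7% in knockout cells and 35.7% and 36.0% in sgNeg2 cells. CXCL11 took 8.53% and 7.79% with sg1 and 6.81% and 6.73% with sg2, against 8.75% and 8.54% with sgNeg2. These intervals cover counting error only, since reads carried no molecular identifiers that the sources used here name. The shares are given as a description, with no test. Without IFN, CXCL10 took 86.9% to 89.7% in knockout cells and 90.6% and 93.8% in sgNeg2 cells, with intervals up to 11.85 percentage points wide.

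**Figure D3:**
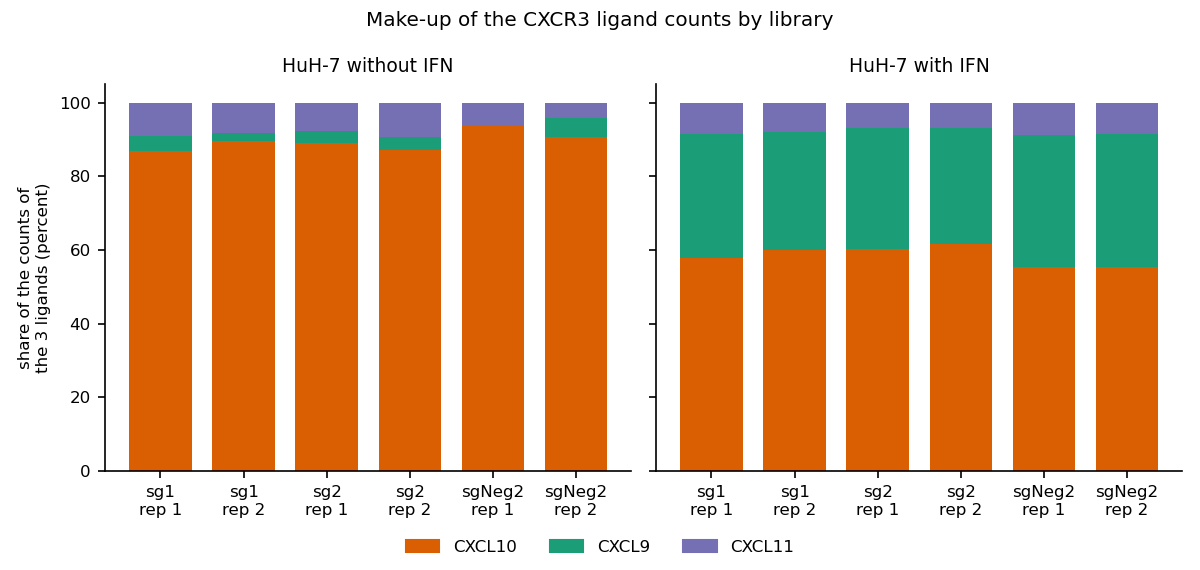
Percent of the summed counts of CXCL9, CXCL10 and CXCL11 taken by each ligand in every HuH-7 guide library, without IFN on the left and with IFN on the right, knockout libraries before sgNeg2 libraries. With IFN the CXCL10 part is 57.8% to 61.6% in knockout libraries and 55.5% and 55.45% in sgNeg2 libraries.

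CXCL10 was higher with EPZ-5676 than with DMSO. CXCL10 was at 14.4, 13.4 and 12.7 CPM with EPZ-5676, against 2.92, 3.64 and 4.54 CPM with DMSO. The lowest treated library held more than the highest DMSO library. Means were 13.5 ± 0.870 CPM with EPZ-5676 and 3.70 ± 0.814 CPM with DMSO (SD, n = 3 each), a log2 difference of 1.87 ± 0.12 (3.65-fold, adjusted p = 2.04e-19). It stayed between 1.72 and 2.05 when each library was left out. In this comparison 15.1% of the 15023 tested genes were called higher, 18.6% lower and 33.7% in either direction. These files list only symbols with counts in all 6 libraries, and CXCL9 and CXCL11 were not analysed here for the inhibitor. Summed markers moved with the treatment too. The fibroblast ones were at 4.80 to 5.86 CPM with EPZ-5676 and at 1.79 to 2.51 CPM with DMSO, and the T cell ones at 6.49 to 7.59 CPM with EPZ-5676 and at 4.61 to 5.47 CPM with DMSO. PECAM1, the 1 of 4 endothelial markers listed, was at 8.15 to 9.97 CPM with EPZ-5676 and at 4.44 to 6.41 CPM with DMSO. Hepatocyte sums were at 14342 to 14398 CPM with EPZ-5676 and at 16180 to 16302 CPM with DMSO, and macrophage sums at 77.96 to 80.97 CPM with EPZ-5676 and at 69.85 to 74.34 CPM with DMSO. Lung epithelium sums, mostly EPCAM, were at 117.9 to 123.6 CPM with EPZ-5676 and at 125.5 to 127 CPM with DMSO. The part of these sums in the CXCL10 value was not tested.

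The order of CXCL10 levels over the HuH-7 settings can be read from the 2 separately scaled sets. From high to low the means were 544 CPM in knockout cells with IFN, 340.4 in sgNeg2 cells with IFN, 13.5 with EPZ-5676, 7.62 in untreated knockout cells, 3.81 in untreated sgNeg2 cells and 3.70 with DMSO. The last 2 groups overlapped (3.70 and 3.92 against 2.92 to 4.54 CPM). Levels set across the 2 sets were not tested.

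In the mouse lines Cxcl10 was the only one of the 3 ligands with enough counts to test. Hepa1-6 knockout cells held slightly more of it. Cxcl10 was at 54.8 and 55.3 CPM with sg1 and at 57.3 and 53.45 CPM with sg2, against 43.7 and 44.8 CPM with sgNeg2. All knockout libraries lay above both sgNeg2 libraries, and the log2 difference was 0.32 ± 0.05 (1.25-fold, adjusted p = 5.87e-05). It stayed between 0.30 and 0.34 when each library was left out. Hepatocyte marker sums were at 15285 to 15718 CPM in knockout cells and at 22605 to 22647 CPM in sgNeg2 cells. Fibroblast sums were at 331 to 347.5 CPM in knockout cells and at 404 to 419.8 CPM in sgNeg2 cells. Lung epithelium sums, mostly Epcam, were at 146.4 to 167.1 CPM in knockout cells and at 134.5 to 142.6 CPM in sgNeg2 cells. Their part was not tested. In Hepa1-6, 14.5% of the 12493 tested genes were called higher, 18.3% lower and 32.8% in either direction.

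Hep53.4 held very little Cxcl10. Counts were 22 and 16 with sg1 and 17 and 8 with sg2, against 12 and 12 with sgNeg2, or 0.379, 0.281, 0.346 and 0.190 CPM in knockout cells and 0.224 and 0.205 CPM in sgNeg2 cells. The lowest knockout library fell below both sgNeg2 libraries. The log2 difference was 0.49 ± 0.57 (95% interval -0.67 to 1.65, adjusted p = 0.527), where 39.2% of tested genes were called, 19.4% higher and 19.7% lower. Endothelial marker sums were at 26.5 to 31.0 CPM in knockout cells and at 47.0 to 48.2 CPM in sgNeg2 cells. Fibroblast sums were at 8.97 to 9.38 CPM in knockout cells and at 12.45 to 13.64 CPM in sgNeg2 cells. T cell sums were at 0.0345 to 0.163 CPM in knockout cells and at 0 in sgNeg2 cells. Their part was not tested.

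LLC was in between. Cxcl10 was at 1.51 and 2.06 CPM with sg1 and at 1.323 and 1.357 CPM with sg2, against 1.12 and 1.72 CPM with sgNeg2. The sgNeg2 libraries bracketed 3 of the 4 knockout libraries. The log2 difference was 0.14 ± 0.26 (95% interval -0.40 to 0.67, adjusted p = 0.726), where 33.5% of tested genes were called, 16.0% higher and 17.5% lower. Its sign turned without the first sgNeg2 library (-0.13), without the second sg1 library (-0.03) and with sg2 alone (-0.09). Macrophage marker sums were at 14.41 to 16.36 CPM in knockout cells and at 17.05 to 17.51 CPM in sgNeg2 cells. T cell sums, mostly Cxcr3, were at 1.57 to 2.09 CPM in knockout cells and at 0.722 to 0.859 CPM in sgNeg2 cells. Their part was not tested.

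The knockout difference in 1 line was then tested against that in another. Hepa1-6 minus Hep53.4 was -0.20 ± 0.38 (adjusted p = 0.78, 95% interval -0.98 to 0.58), Hepa1-6 minus LLC was 0.16 ± 0.20 (adjusted p = 0.65, -0.25 to 0.56) and Hep53.4 minus LLC was 0.35 ± 0.41 (adjusted p = 0.599, -0.49 to 1.19). None was called for Cxcl10, where 24.7%, 24.6% and 29.2% of 14195 tested genes were called. A difference between lines was not shown, and these pairs of contrasts each share a line. The sg2 minus sg1 differences of Cxcl10 were 0.01 in Hepa1-6 (adjusted p = 0.977), -0.28 in Hep53.4 (0.906) and -0.42 in LLC (0.491), where 2.79%, 2.90% and 6.01% of tested genes were called.

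Control cells of the lines differed in Cxcl10 by more than any line did by genotype. This comparison was added after the values were seen. Hepa1-6 sgNeg2 cells exceeded Hep53.4 sgNeg2 cells by 7.58 ± 0.19 on the log2 scale (adjusted p = 1.52e-27) and LLC sgNeg2 cells by 5.04 ± 0.15 (adjusted p = 3.39e-26). LLC exceeded Hep53.4 by 2.54 ± 0.31 (adjusted p = 3.29e-09). With 76.2%, 81.0% and 78.1% of genes called in these comparisons, a difference between lines was the rule.

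Cxcl9 and Cxcl11 were at or near 0 in all mouse lines. Cxcl9 counts in Hepa1-6 were 0, 2, 0 and 2 in knockout cells and 0 and 4 in sgNeg2 cells. In Hep53.4 it was at 0 in every library, which allows up to 0.0143 CPM over the knockout libraries and 0.0276 CPM over the sgNeg2 libraries (3 counts of the total, counting error only). In LLC it had 4, 0, 0 and 1 counts in knockout cells and 0 and 0 in sgNeg2 cells. Cxcl11 counts were 4, 2, 0 and 12 in Hepa1-6 knockout cells and 4 and 0 in sgNeg2 cells, and at most 4 in any library of the other lines. Neither gene passed the filter on low counts, so neither was tested.

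**Figure D4:**
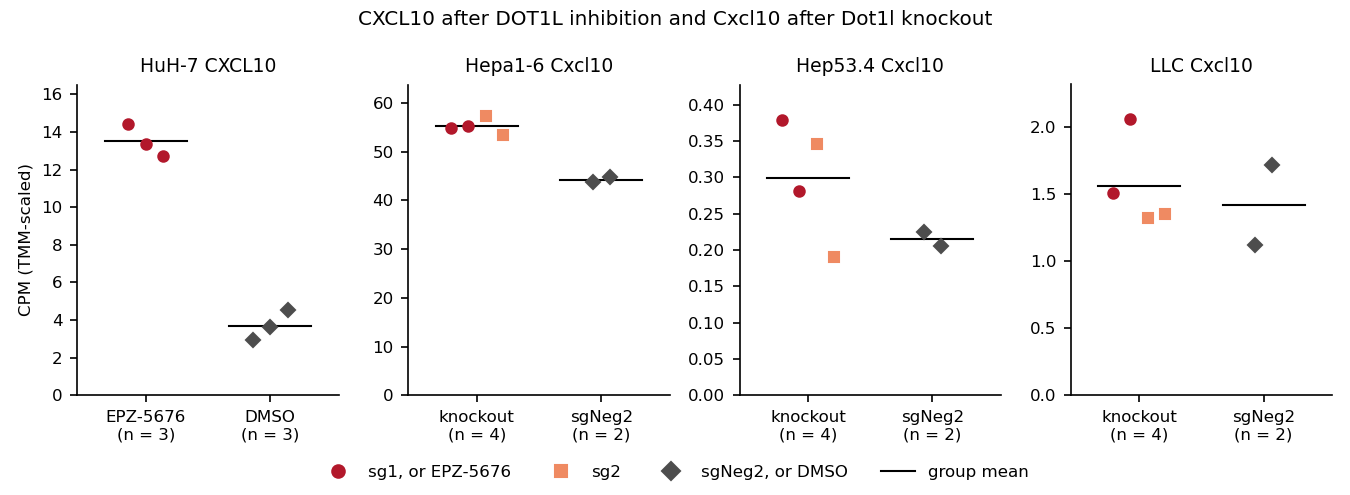
CPM per library of CXCL10 in HuH-7 cells with EPZ-5676 and DMSO, and of Cxcl10 in knockout and sgNeg2 cells of Hepa1-6, Hep53.4 and LLC, each panel with its own linear axis from 0 and lines at group means. The groups are separate with EPZ-5676 (12.7 to 14.4 against 2.92 to 4.54 CPM) and in Hepa1-6, and overlap in Hep53.4 and LLC.

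Genes that act on the ligands after secretion came next. The receptor CXCR3 was at 0 counts in all 12 HuH-7 guide libraries, a floor of 0.0139 CPM over the knockout libraries with IFN. DPP4, a surface peptidase that trims the ligands to weaker forms, was the only 1 of 5 genes for receptors and processing that could be tested in HuH-7. With IFN it averaged 76.1 ± 9.53 CPM in knockout cells and 141 ± 9.03 CPM in sgNeg2 cells, a log2 difference of -0.89 ± 0.10 (adjusted p = 6.5e-05). Without IFN the log2 difference was -0.39 ± 0.10 (adjusted p = 0.0258), which lay between -0.44 and -0.37 with each library left out and lost its call without either sgNeg2 library, the first sg1 or the first sg2 library. With EPZ-5676 it was -0.15 (adjusted p = 1.15e-06).

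In mice, Ackr3, a scavenger receptor that takes up CXCL11, averaged 0.614 CPM in Hepa1-6 knockout cells and 0.0572 CPM in sgNeg2 cells (log2 3.34 ± 0.74, adjusted p = 0.00122). In that line Ackr3 passed the filter on its knockout counts alone, which makes a call more likely, and its sgNeg2 level is near 0. In LLC it averaged 9.12 CPM in knockout cells and 4.81 CPM in sgNeg2 cells (log2 0.92 ± 0.12, adjusted p = 4.88e-06). Cxcr3 in LLC was at 1.53 to 2.09 CPM in knockout cells and at 0.722 and 0.859 CPM in sgNeg2 cells (log2 1.14 ± 0.26, adjusted p = 0.002). The Cxcr3 call was lost in the joint fit of the 18 mouse libraries, and of the 5 other T cell markers Cd3d, Cd2 and Cd8a were at 0 in LLC knockout cells, while Ptprc and Cd3e were not. In Hepa1-6, Cxcr3 was at 0.

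Inducers and their receptors followed. IFNG and IFNB1 had 0 counts in all 12 HuH-7 guide libraries. IL1B, an activator of NF-κB, was the only 1 of 12 inducing cytokines tested. It averaged 0.542 CPM in knockout cells and 0.0797 CPM in sgNeg2 cells with IFN (log2 2.72 ± 0.69, adjusted p = 0.0192; 2.364 to 2.996 with each library left out, the call lost without either sgNeg2 library). Of 8 receptors and kinases tested, 2 rose in knockout cells without IFN and the same 2 with it. Over all tested genes 6.95% rose without IFN and 7.11% with it. IFNGR1, the ligand-binding chain of the interferon gamma receptor, averaged 63.5 CPM in knockout cells and 35.2 CPM in sgNeg2 cells without IFN (log2 0.85 ± 0.12, adjusted p = 0.000446). With IFN it averaged 61.9 CPM in knockout cells and 36.1 CPM in sgNeg2 cells (0.78 ± 0.12, adjusted p = 0.000539).

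JAK2, a kinase of that receptor complex, differed by 0.87 ± 0.14 without IFN (adjusted p = 0.0014). With IFN it differed by 0.52 ± 0.14 (adjusted p = 0.0235), between 0.44 and 0.61 with each library left out, and its call was lost without either sgNeg2 library. With EPZ-5676 both were also called, IFNGR1 at 0.33 and JAK2 at 0.30, among 2 higher and 2 lower of 8. Over all tested genes 15.1% were higher and 18.6% lower in that comparison.

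Transcription factors of the pathway came next. Without IFN, 2 of 12 tested rose and 1 fell, where 6.95% of all tested genes rose and 4.38% fell. IRF1 (0.35, adjusted p = 0.0355; 0.28 to 0.37) and STAT3 (-0.20, adjusted p = 0.0469; -0.26 to -0.17) lost their calls without any 1 of 5 of the 6 libraries, the exception being the second sg2 library. With IFN, 0 of 12 were called by edgeR, where 12.4% of all tested genes were. IRF1 was at 225 to 284 CPM in knockout cells and at 275.5 and 277 CPM in sgNeg2 cells.

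With IFN against without it, 12 of 12 of these factors were higher in knockout cells, where 36.4% of all tested genes were higher, and 11 of 12 in sgNeg2 cells, where 33.0% were. In sgNeg2 cells IRF1 differed by 3.22 and IRF9, a subunit of the complex that binds response elements, by 1.86 on the log2 scale. In knockout cells IRF1 differed by 2.75. EPZ-5676 gave 5 higher and 1 lower of 12 (15.1% and 18.6% of all tested genes), led by NFKB2 at 0.50, IRF8 at 0.38 and IRF9 at 0.36. The CXCL10 difference in the same comparison was 1.87.

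Feedback genes included 2 that restrain NF-κB. TNFAIP3, a ubiquitin-editing inhibitor, averaged 88.2 CPM in knockout cells and 43.3 CPM in sgNeg2 cells with IFN (log2 1.03 ± 0.08, adjusted p = 1.68e-06) and differed by 0.65 ± 0.08 without IFN (adjusted p = 0.000105). NFKBIA, which holds NF-κB in the cytoplasm, differed by 0.70 ± 0.11 with IFN (adjusted p = 0.000634). Of 7 tested, 2 rose with IFN, where 7.11% of all tested genes rose. Without IFN 1 rose and 1 fell, where 6.95% of all tested genes rose and 4.38% fell. The one that fell, SOCS3 (-0.40, adjusted p = 0.0464), ranged from -0.50 to -0.33 with each library left out and lost its call without any library but the first sg1 one. With EPZ-5676, where 15.1% of all tested genes rose, 4 of 7 rose. They were led by SOCS1, an inhibitor of JAK kinases, at 0.79, TNFAIP3 at 0.66 and NFKBIA at 0.59.

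Other chemokines, most of which draw neutrophils or monocytes and are not ligands of CXCR3, rose more broadly. Of 23 listed, 14 could be tested in HuH-7, and a gene that passes the filter on its knockout counts alone is more likely to be called. Without IFN 9 of 14 rose and 0 fell, with a median log2 difference of 0.81 against 0.003 for all tested genes, of which 6.95% rose. With IFN 12 of 14 rose and 0 fell (median 0.98 against -0.058, with 7.11% of all tested genes higher). Without IFN the differences of CXCL10 (1.00), CXCL11 (1.75) and CXCL9 (1.38, not called) lie above the median of 0.81. With IFN those of CXCL10 (0.68), CXCL9 (0.43) and CXCL11 (0.36, not called) lie below the median of 0.98.

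CCL28, a mucosal chemokine, averaged 8.77 CPM in knockout cells and 2.80 CPM in sgNeg2 cells without IFN (log2 1.64 ± 0.17, adjusted p = 4.6e-05), and with IFN the difference was 1.80 ± 0.19. CXCL6, a neutrophil attractant, averaged 18.9 CPM in knockout cells and 4.98 CPM in sgNeg2 cells with IFN (1.93 ± 0.16, adjusted p = 3.49e-06) and differed by 1.49 ± 0.18 without it (adjusted p = 0.000177). CCL25, which attracts T cells to the gut, averaged 1.34 CPM in knockout cells and 0.153 CPM in sgNeg2 cells with IFN (3.14 ± 0.61, adjusted p = 0.00407). The CCL25 value is loose, at 2.22 to 5.74 with each library left out. CCL2, a monocyte attractant, had 40 counts over the knockout libraries and 0 over the sgNeg2 libraries without IFN, and its call was lost without either sgNeg2 library. With EPZ-5676, 9 of 11 tested rose and 0 fell (median 1.03 against 0.009, with 15.1% of all tested genes higher), led by CXCL6 at 1.83, CXCL8 at 1.56 and CXCL5 at 1.31. CCL20, an attractant of dendritic cells and T helper cells, was the only other chemokine called in the interaction (-0.71, adjusted p = 0.00304), a call lost without the second untreated sgNeg2 library.

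**Figure D5:**
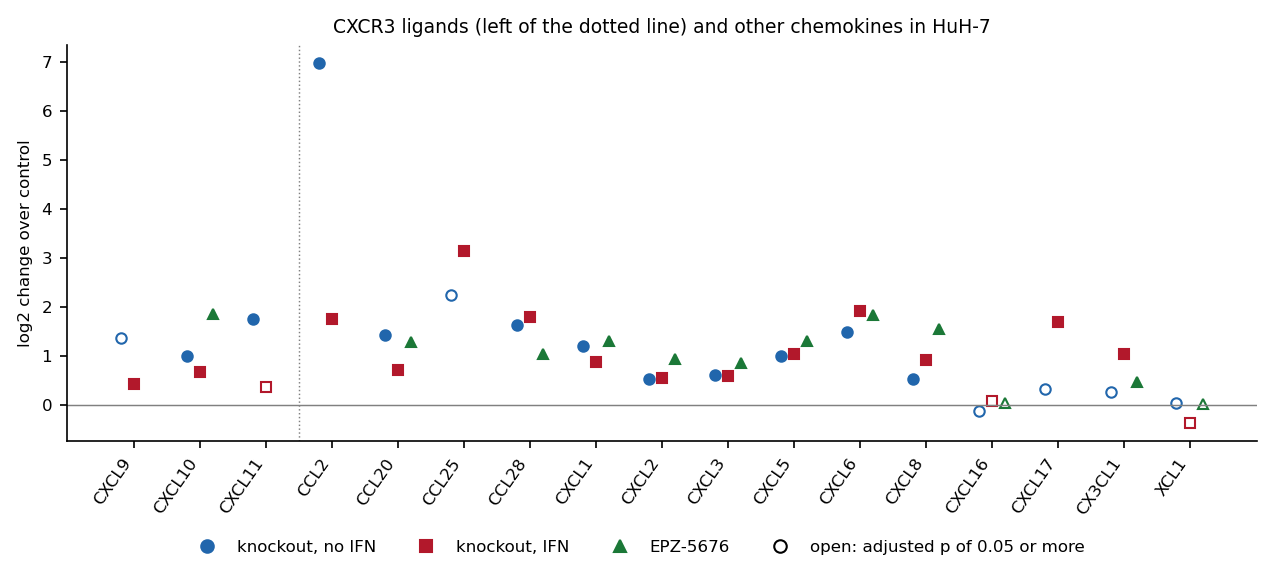
Log2 differences of the 3 CXCR3 ligands and 14 other chemokines in HuH-7 knockout against sgNeg2 cells without IFN, the same with IFN, and EPZ-5676 against DMSO. Open points did not pass the threshold. CXCL10 lies within the spread of the other chemokines in both knockout comparisons and, at 1.87, just above CXCL6 at 1.83 with EPZ-5676, and the CCL2 point at 6.97 is a fit against 0 counts that sets no bound.

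In the mouse lines the other chemokines went both ways. Over all tested genes, 14.5% were higher and 18.3% lower in Hepa1-6, 19.4% and 19.7% in Hep53.4, and 16.0% and 17.5% in LLC, and several of the counts below are near these shares. Hepa1-6 had 5 higher and 2 lower of 13 tested, led by the neutrophil attractants Cxcl5 at 1.12, Cxcl1 at 0.63 and Cxcl2 at 0.59. The Cxcl2 call was lost without the first sgNeg2 library (0.48 to 0.71 over all libraries left out). Hep53.4 had 4 higher and 3 lower of 13. They were led by Ccl9, with 44 counts over the knockout libraries and 0 over the sgNeg2 libraries, by the monocyte attractant Ccl7 at 2.60 and by Ccl8 at 1.16, whose call was lost in the joint fit of the mouse libraries. Ccl9 passed the filter there on its knockout counts alone. LLC had 3 higher and 0 lower of 11. They were Cxcl3 at 4.35 (3.50 to 7.56 over all left out), Cxcl5 at 2.01 and Ccl7 at 0.44. The Cxcl5 call was lost without the second sgNeg2 library (1.70 to 2.37 over all left out). The Ccl7 call was lost without the first sgNeg2 library and in the joint fit (0.36 to 0.53).

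The same background holds for the other lists. Among 13 transcription factors, Hepa1-6 had 2 higher, among them Irf7 at 0.40, and 4 lower, among them Stat3 at -0.34 and Irf1 at -0.31. In LLC, 3 were higher, led by Irf8 at 0.88 and Irf1 at 0.50, and 1 was lower. Hep53.4 had 2 higher, among them Irf7 at 0.75 (lost without the second sgNeg2 library, 0.39 to 1.21 over all left out), and 3 lower, among them Nfkb1 at -0.25. Among 8 receptors and kinases, Hepa1-6 had 1 higher (Jak2 at 0.14) and 4 lower, Hep53.4 had 2 higher and 1 lower (Ifngr1 at -0.35), and LLC had 1 higher (Jak2 at 0.48) and 4 lower, among them Jak1 at -0.23. Of 7 feedback genes, 0 rose and 2 fell in Hepa1-6, 3 rose and 1 fell in Hep53.4, and 1 rose and 1 fell in LLC. Socs3, an inhibitor of cytokine receptors, was among them in every line, at -0.25 in Hepa1-6, 0.31 in Hep53.4 and -0.54 in LLC.

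Neighbours of the ligands on chromosome 4 were then read in the same comparisons. Of 9 neighbouring genes tested, ART3, whose span contains CXCL10 and CXCL11, was the only 1 called in knockout against sgNeg2 cells without IFN. With IFN 0 of 9 were called. Over all tested genes 11.3% were called without IFN and 12.4% with it, so these counts are near the shares of any genes. Between guides with IFN, 5 of 9 were lower with sg2 than with sg1 and 0 were higher (median log2 -0.288). They were SCARB2, USO1, G3BP2, SDAD1 and NUP54, where 34.4% of all tested genes were called in either direction. CXCL11 was also lower there at -0.43, and CXCL9 at -0.19 and CXCL10 at -0.11 were not called. ART3 averaged 0.700 CPM in knockout cells and 0.235 CPM in sgNeg2 cells without IFN (log2 1.57 ± 0.43, adjusted p = 0.0295). It ranged from 1.23 to 1.97 with each library left out and lost its call without either sgNeg2 library or either sg1 library. With IFN against without it, 5 of 9 were higher and 1 was lower in sgNeg2 cells, where 33.0% of all tested genes were higher and 34.7% lower. In knockout cells 6 of 9 were higher and 2 lower, where 36.4% of all tested genes were higher and 42.2% lower. ART3 averaged 5.07 CPM with IFN and 0.235 CPM without it in sgNeg2 cells (log2 4.41 ± 0.38, adjusted p = 3.3e-07), and the difference was 3.34 in knockout cells. NAAA, the gene of a lysosomal amidase, differed by 1.09 ± 0.11 with IFN in sgNeg2 cells and by 1.02 ± 0.08 in knockout cells. NUP54 and SDAD1 were also higher in both (0.58 and 0.58 in sgNeg2 cells, 0.41 and 0.31 in knockout cells), and SCARB2 was lower in both (-0.47 in sgNeg2 cells, -0.27 in knockout cells). STBD1 was at 0.92 in sgNeg2 cells, a call lost without any 1 of the 4 libraries (0.80 to 0.98), and at 1.46 in knockout cells. USO1 at 0.25 and FAM47E at -2.31 were called in knockout cells only by the threshold, and the difference between genotypes was not called for either. With EPZ-5676, where 15.1% of all tested genes rose and 18.6% fell, 3 of 9 neighbours rose and 1 fell. They were FAM47E at 1.362 (0.638 CPM with EPZ-5676 and 0.247 CPM with DMSO, the call lost without the first EPZ-5676 library, 1.21 to 1.52 over all left out), SDAD1 at 0.16 (lost without the second DMSO or the third EPZ-5676 library, 0.13 to 0.19), USO1 at 0.07 and G3BP2 at -0.23.

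Genes whose profile over the 6 HuH-7 guide groups was most like that of a ligand were ranked among 13340 genes by the root mean square difference of centred group means, log2(CPM + 0.5). For CXCL10 they were CXCL11 at 0.186, the guanylate-binding protein GBP1 at 0.206, the virion tether BST2 at 0.491, HAPLN3 at 0.498 and GBP4 at 0.560. For CXCL11 they were GBP1 at 0.148, CXCL10 at 0.186, HAPLN3 at 0.442, BST2 at 0.479 and BATF2 at 0.555. For CXCL9 the nearest were GBP5 at 0.959 and CXCL10 at 1.22, so no gene matched its range as closely. For mouse Cxcl10, over 9 groups and 11558 genes, they were Oas1a, an antiviral oligoadenylate synthetase, at 0.182, Slc44a3 at 0.197, Aldh1l1 at 0.257, Oas3 at 0.276 and Platr14 at 0.316. IFN was present in 3 of the 6 human groups. The 0.5 CPM added before the log narrows the range of genes near 0, such as CXCL11 at 0.214 CPM in untreated sgNeg2 cells. The edgeR tests put the IFN difference in sgNeg2 cells at 7.93 for CXCL11 and 6.48 for CXCL10. A small distance here thus does not show an equal IFN difference.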

How the data were processed

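The authors deposited raw counts per gene symbol, 1 file per library. Per the submitters' processing notes, Trim Galore, HISAT2 2.2.1, SAMtools 1.9 and DESeq2 1.36.0 were used with the builds hg38 and mm10. No source used here names the counter or its annotation. Members and gene lists were chosen with earlier results of these data known.

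Counts were tested in edgeR 4.0.16 (R 4.3.3). Genes passed filterByExpr (minimum count 10, minimum total 15), were TMM-scaled and went through the robust quasi-likelihood F test, with Benjamini-Hochberg adjustment over all tested genes and a threshold of 0.05. The 12 HuH-7 guide libraries shared 1 fit, each other set had its own, and 18 mouse libraries shared a joint fit for differences between lines. CPM are TMM-scaled, and SEs of log2 differences were derived from p. The scripts were tested on simulated data. DESeq2 1.42.0 served as an alternative. Replicate numbers did not pair libraries: correlations of same-numbered residuals ran from -0.061 to 0.062. No 2 libraries agreed within sampling noise. Called genes of each role list were named by the largest absolute differences, up to 3, and called neighbours by name. Some mouse examples were picked after their values were seen. A gene that the rule would name is not reported here.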

Additional observations from a re-analysis of the deposited data

Results flagged for a closer look

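CXCL9 in untreated HuH-7 knockout cells was set apart in 1 library. The second sg1 library held 4 counts, or 0.167 CPM, while the other knockout libraries held 7 or 8 counts, 0.319 to 0.328 CPM, so its gap to the next library is most of the group's range. Of 9 groups of the ligands large enough for this check, 1 was picked out, and chance alone picks out about 1 in 20 groups. Its part in the CXCL9 result was not tested beyond leaving that library out.

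CXCL11 with IFN differed between the guides, at -0.43 on the log2 scale for sg2 minus sg1 (adjusted p = 0.00119; -0.50 to -0.35 with each library left out). DOT1L mRNA was at 66.7 and 66.8 CPM in the sg2 libraries and at 42.5 and 46.5 CPM in the sg1 libraries. Its part in the difference was not tested.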

How the results depend on the processing

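For 34 results on the ligands, 208 values came from alternative settings and 216 from leaving out 1 library; 199 and 201 of them kept direction and side of the threshold, and 9 turned direction. CXCL10 kept its call in the HuH-7 knockout, IFN and EPZ-5676 comparisons, and Cxcl10 in the Hepa1-6 knockout comparison, under all alternatives run. With a replicate block, CXCL9 with IFN lost its call (0.429, adjusted p = 0.0556), and the block changed no other call of a ligand. CXCL11 with IFN was called with guides as groups (0.346), with sg1 alone (0.561) and with a GC offset (0.381). In the interaction, CXCL11 was called with guides as groups (-1.408) and sg2 alone (-1.721), and CXCL10 with sg2 alone (-0.496). CXCL9 between guides with IFN was called by DESeq2 (-0.186). LLC Cxcl10 turned with sg2 alone (-0.090), and PTPN2 under IFN, in sgNeg2 cells, turned with DMSO libraries as control (-0.138).

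With each library left out, knockout without IFN gave 0.405 to 6.387 for CXCL9 and 1.440 to 2.077 for CXCL11; knockout with IFN gave 0.386 to 0.485 for CXCL9 and 0.261 to 0.448 for CXCL11. The CXCL9 interaction ran from -5.903 to 0.025, LLC Cxcl10 from -0.134 to 0.478, Hepa1-6 minus LLC from -0.204 to 0.416 and Hep53.4 minus LLC from -0.005 to 0.616. Between guides, CXCL9 without IFN ran from -0.010 to 0.937, Hepa1-6 from -0.041 to 0.061 and Hep53.4 from -0.793 to 0.066. The cause was not tested.

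The share of genes called by knockout ranged over settings from 3.24% to 31.2% without IFN and from 5.93% to 32% with it, and in the interaction from 0.109% to 25.4%. In mouse it fell to 18.3% in Hepa1-6, 25.5% in Hep53.4 and 19.9% in LLC with 1 sgNeg2 library left out. Calls of other genes were also lost: IRF1 without IFN under RLE scaling, the block and without RNAs lacking poly(A); STAT3 and SOCS3 with no filter and the block; SOCS3 with sg1 alone; ART3 with sg2 alone and, like JAK2 and IL1B with IFN, in a fit of 6 libraries; Irf7 in Hep53.4 with sg2 alone; Cxcl2 in Hepa1-6 in the joint mouse fit; STBD1 under IFN without RNAs lacking poly(A). Between guides, DESeq2 called 1.87% in HuH-7 without IFN, 5.94% in Hep53.4 and 9.78% in LLC. A GC offset was not run for mouse; DESeq2 gave no adjusted p between guides for CXCL11 without IFN or for Cxcl10 in Hep53.4 and LLC. Counts under about 20 limit CXCL9 and CXCL11 without IFN and Cxcl10 in Hep53.4.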
